A study of Homo sapiens with 6 samples.

Results

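HOX genes and their partners of the PBX and MEIS families were followed by RNA sequencing in cells labelled SW480, an established human colorectal adenocarcinoma line. The members were every gene row whose symbol is HOXA, HOXB, HOXC or HOXD with a number, PBX with a number up to 4, or MEIS with a number up to 3. They numbered 46 of the 56638 gene rows: 39 HOX genes, 4 PBX genes and 3 MEIS genes. The TGFB1 group had received the cytokine TGF-β1 at 10 ng/ml, repeatedly, and the control group was the same line without treatment, both at passages 16 to 19. Each group had 3 libraries, with 13012898 to 16005222 counts in genes per library. The labels do not say whether these are separate cultures, so the p-values measure the spread between libraries, which may be technical.

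HOX genes encode homeodomain transcription factors and lie in 4 clusters, whose genes are numbered along the chromosome so that low numbers pattern the front of the embryo and high numbers the rear. Most HOX proteins bind DNA with PBX proteins, and many also with MEIS proteins, which likewise hold PBX in the nucleus. In the gut, posterior HOX genes and the CDX factors that act upstream of them are markers of position along the intestine.

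The line was checked against epithelial and colonic markers. KRT8, an epithelial keratin, stood at 1678 ± 20.4 CPM in TGFB1 cells and 1711 ± 1.33 CPM in control cells (SD, n = 3 each) and did not pass the test described with the HOX changes. CPM scale each read count to the library total after TMM adjustment. Of 15 listed markers 5 were tested, of which 3 fell, 1 rose and 1 did not pass. KRT18 fell to 125 ± 2.59 CPM in TGFB1 cells, against 183 ± 7.36 CPM in control cells, and EPCAM, an epithelial adhesion protein, to 4.06 ± 1.00 CPM against 6.94 ± 0.543 CPM. E-cadherin (CDH1) was lower, with 12 TGFB1 and 47 control counts, and the stem cell marker LGR5 higher, with 46 and 13, but each met the minimum of the count filter only in the group where it was high. KRT19 had 6 TGFB1 counts and 1 control count, and KRT20 had 4 in each group. The intestinal markers CDX2, GPA33 and ASCL2 had 0 counts in all 6 libraries, where 3 counts over a group would be 0.0677 CPM in TGFB1 and 0.0698 CPM in control libraries, counting error only. VIL1 had 0 counts in TGFB1 and 3 in control libraries. KRT8 and KRT18 were thus present, while KRT19, KRT20 and defining colonic markers were at or near 0, and the identity of the line rests on its label and is uncertain in these data. Of 10 fibroblast markers 5 were tested. COL1A1, DCN and PDGFRB met the minimum of the count filter in all 6 libraries and rose 1.30-fold, 2.24-fold and 1.85-fold. FAP (51 TGFB1 counts and 1 control count) and THY1 (52 and 23) were also called higher, but met that minimum in 3 TGFB1 libraries and in 0 and 1 control libraries, so they could hardly have been called lower. LUM, untested, had 3 TGFB1 and 9 control counts. The summed level over the whole list was 120.6 to 136.5 CPM in TGFB1 libraries and 91.0 to 95.1 CPM in control libraries, with COL1A2, COL3A1 and PDGFRA at 0 in control libraries. Its part in the HOX results was not tested, and in bulk RNA a changed number of cells of a type cannot be told apart from changed RNA per cell.

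Of the 4 clusters, HOXC carried the most counted HOX signal and HOXD almost none. Per kilobase of exon, the 9 HOXC genes on chromosome 12 summed to 59.8 ± 1.19 CPM per kb in TGFB1 cells and 54.5 ± 1.24 in control cells (SD, n = 3 each), which was 51.9% ± 0.492 and 51.0% ± 0.610 of the sum over all HOX genes. The HOXB genes on chromosome 17 summed to 33.5 ± 0.536 CPM per kb in TGFB1 cells and 27.5 ± 0.973 in control cells. The HOXA genes on chromosome 7 summed to 20.1 ± 0.134 and 22.9 ± 0.544 CPM per kb in TGFB1 and control cells, and the HOXD genes on chromosome 2 to 1.75 ± 0.340 and 1.92 ± 0.227. The clusters thus kept the order HOXC, HOXB, HOXA and HOXD in both groups.

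Between the groups, each cluster was compared with itself by its summed CPM. HOXC held 138, 136 and 142 CPM in TGFB1 libraries, above its 121, 124 and 125 CPM in control libraries. HOXB held 71.4, 70.8 and 70.3 CPM in TGFB1 libraries, above its 61.8, 60.6 and 57.6 CPM in control libraries. HOXA ran the other way, with 58.4, 57.1 and 56.5 CPM in TGFB1 libraries, below its 65.5, 65.9 and 69.2 CPM in control libraries. HOXD held 3.88 ± 0.756 CPM in TGFB1 cells and 4.30 ± 0.455 CPM in control cells, with overlapping groups. The total over all 39 HOX genes was 271 ± 2.15 CPM in TGFB1 cells and 254 ± 1.86 CPM in control cells, 1.07-fold higher. These sums are descriptions and were not tested.

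Within the expressed clusters the summed signal lay mostly at high numbers, except in HOXB, which has only 2 genes there. Paralogue groups 9 to 13 gave 65.4% ± 0.700 of the HOX sum per kilobase in TGFB1 cells and 67.2% ± 0.568 in control cells. In HOXA this was nearly all of the cluster, as HOXA9 to HOXA13 summed to 17.99 ± 0.257 CPM per kb in TGFB1 cells and 20.8 ± 0.578 in control cells, against 2.06 ± 0.306 and 2.15 ± 0.104 CPM per kb for the lower-numbered genes of the cluster. The 8 HOXB genes below paralogue group 9 gave 22.4 ± 0.854 CPM per kb in TGFB1 cells and 18.8 ± 0.749 in control cells, more than HOXB9 and HOXB13 together (11.1 ± 0.325 and 8.67 ± 0.535 CPM per kb). Of these 8, HOXB7 alone gave 12.6 ± 2.01 and 10.3 ± 0.258 CPM per kb in TGFB1 and control cells. By group means HOXB7 thus exceeded HOXB9 and HOXB13 together, so the HOXB exception is not only a matter of unlike numbers of genes. HOXB6, at 5.68 and 4.97 CPM per kb in TGFB1 and control cells, lay between HOXB9 (8.34 and 5.28) and HOXB13 (2.78 and 3.39).

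**Figure D1:**
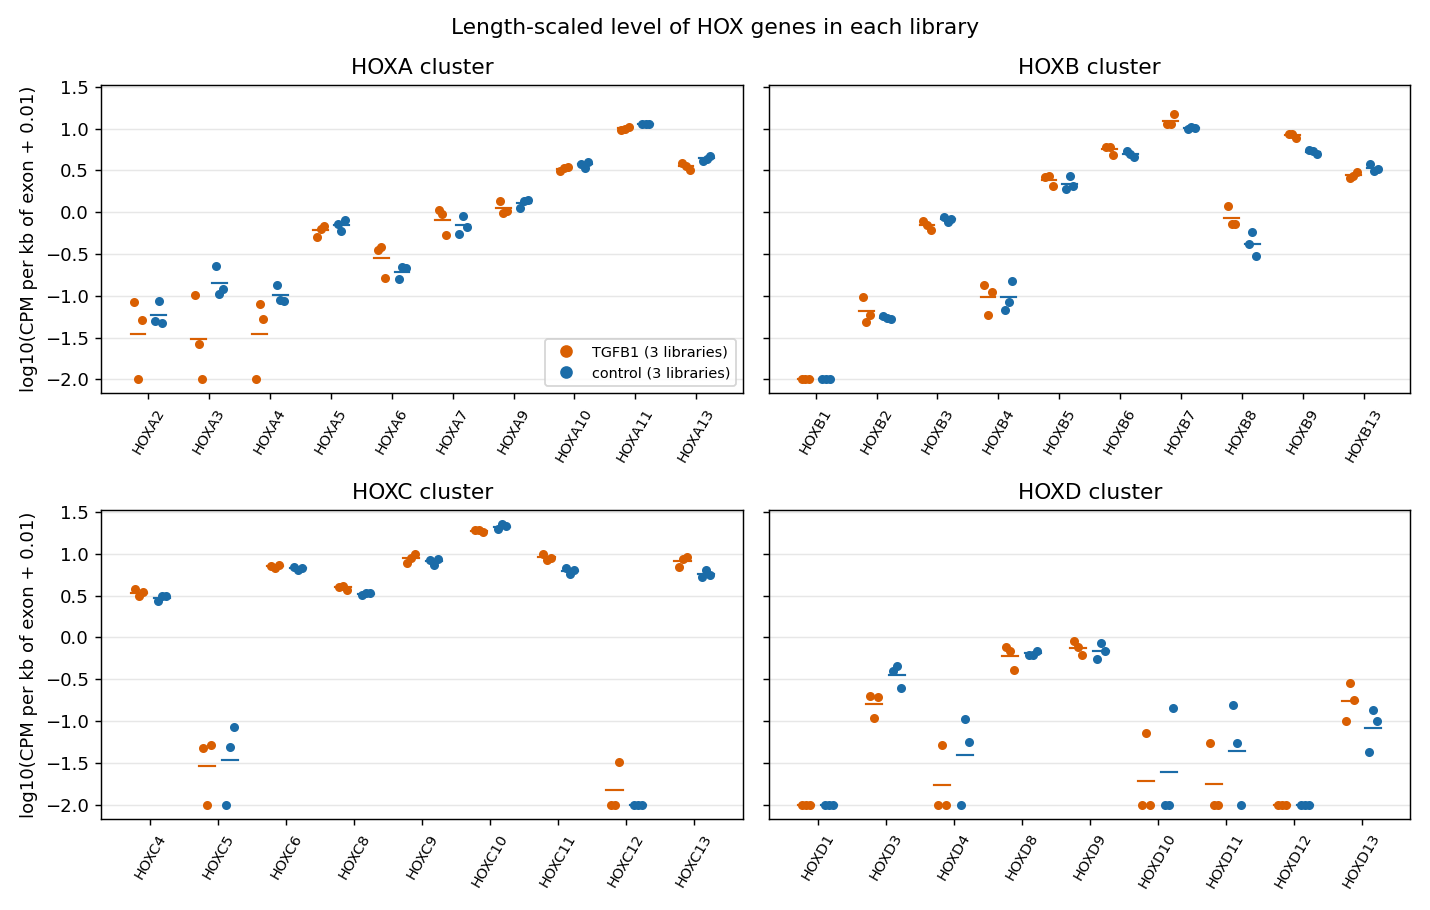
Level of 38 HOX genes per library, as log10 of CPM per kilobase of exon plus 0.01, in 4 panels by cluster. Points are libraries (orange TGFB1, blue control), short lines are means of the plotted values, and a point at −2 is a count of 0. HOXC4, HOXC6 and HOXC8 to HOXC11, HOXC13, HOXA10, HOXA11 and HOXA13, and HOXB5 to HOXB7, HOXB9 and HOXB13 stand above the rest of their clusters in both groups, and most HOXD genes sit near the bottom.

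Single genes were likewise compared per kilobase of exon. HOXC10, a regulator of hindlimb motor neurons in the mouse, was the highest HOX gene in both groups, at 19.0 ± 0.436 CPM per kb in TGFB1 cells and 21.2 ± 1.47 CPM per kb in control cells (SD, n = 3 each). Next came HOXB7 at 12.6 ± 2.01 and 10.3 ± 0.258 CPM per kb and HOXA11, a limb and uterus patterning gene, at 10.0 ± 0.458 and 11.3 ± 0.0365 CPM per kb in TGFB1 and control cells. Every library had HOXB7 above HOXA11 in TGFB1 cells, and every library had it below in control cells. HOXA11 shares 30.9% of its exon bases with HOXA11-AS, while HOXB7 shares 0% with other genes. Reads that overlap both HOXA11 and HOXA11-AS may be missing from the counts, so HOXA11 may be understated. The place of HOXA11 below HOXB7 in TGFB1 cells is therefore uncertain. In TGFB1 cells HOXC11, HOXC9, HOXB9 and HOXC13 followed at 9.11, 8.98, 8.34 and 8.23 CPM per kb, closer together than the SD of HOXC9 (1.11 CPM per kb). In control cells the same 4 stood at 6.28, 8.20, 5.28 and 5.71 CPM per kb. HOXC6 lay at 7.09 ± 0.301 CPM per kb in TGFB1 cells and 6.71 ± 0.267 in control cells. HOXA10, HOXA13 and HOXB13, 3 high-numbered genes, lay between 2.78 and 3.55 CPM per kb in TGFB1 cells and between 3.39 and 4.40 in control cells. HOXA10 also shares 30.9% of its exon bases with other genes and may be understated.

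A mean of 1 CPM was reached by 21 HOX genes in each group, with HOXB8 on the TGFB1 list only (1.58 ± 0.515 against 0.770 ± 0.255 CPM) and HOXA5 on the control list only (0.995 ± 0.163 against 1.16 ± 0.182 CPM). HOXB1, HOXD1 and HOXD12 had 0 counts in all 6 libraries. HOXA2, HOXB2, HOXC5, HOXC12, HOXD4, HOXD10 and HOXD11 also had fewer than 10 counts over the 6 libraries together. Silent or nearly silent genes lay inside active clusters, with HOXC5 between HOXC4 and HOXC6 and HOXC12 between HOXC11 and HOXC13. Reads that overlap more than 1 gene are missing from the counts. In the GENCODE 29 annotation 33.9% of the exon bases of HOXC5 are shared with another gene. The share was 80.5% for HOXD4 and 58.1% for HOXD1, against 0% for HOXB1 and HOXD12. Low counts of HOXC5, HOXD1 and HOXD4 may thus be understated, and with them the HOXD sums. The same holds for the levels of HOXA7 (74.7%), HOXA4 (47.3%) and HOXB6 (37.7%).

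The change with TGF-β1 was tested across all genes. Of 14897 genes tested 47.3% changed (edgeR quasi-likelihood test, Benjamini-Hochberg adjusted p under 0.05), 23.4% higher and 23.9% lower in TGFB1 cells. Of the 46 members, 30 had enough counts to be tested. Among 23 tested HOX genes 5 rose, 2 fell and 16 did not pass, a called share of 30.4% that is below the 47.3% of all genes. The median log2 fold change was 0.12 for tested HOX genes and 0.00033 for all tested genes. Among the 7 PBX and MEIS genes, all tested, 2 rose, 1 fell and 4 did not pass. In 14 of the 30 tested members the groups did not overlap, where 54.2% of all tested genes showed no overlap. DESeq2 called 3 HOX genes higher and 1 lower, while the same 2 PBX and MEIS genes were higher and the same 1 lower.

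**Figure D2:**
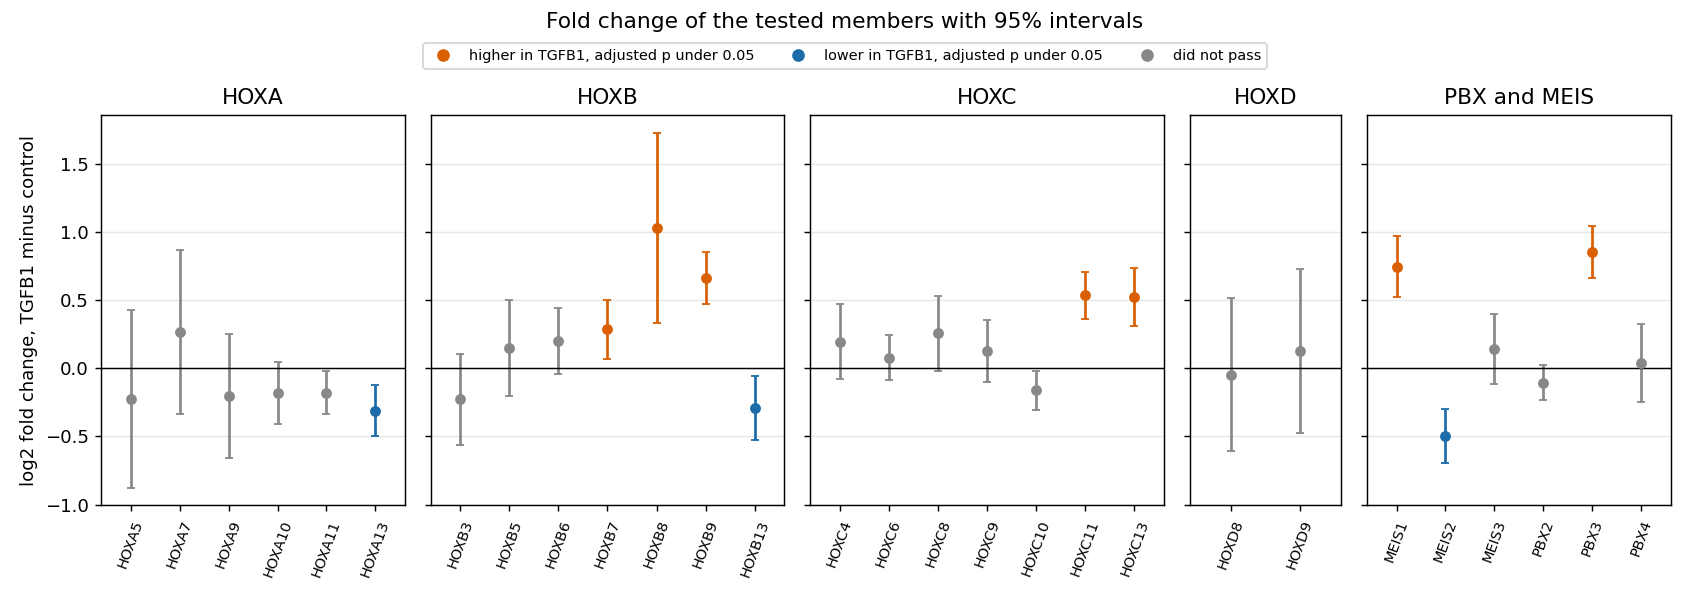
Log2 fold change, TGFB1 minus control, of 28 tested members in order of number, with 95% intervals. Orange points passed as higher, blue as lower and grey did not pass; HOXB7 to HOXB9, HOXC11, HOXC13, MEIS1 and PBX3 lie above 0, and HOXA13, HOXB13 and MEIS2 below.

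In HOXB, a run of 3 neighbours rose while the last gene of the cluster fell. HOXB9, which encodes a posterior HOX factor active in rib and mammary patterning in the mouse, had 22.1, 22.5 and 20.0 CPM in TGFB1 libraries and 14.2, 13.9 and 12.7 CPM in control libraries. Every TGFB1 library exceeded every control library. Its log2 fold change was 0.66 ± 0.092 (SE, edgeR adjusted p = 7.20e-07), a 1.58-fold rise. HOXB8, known for a role in blood cell progenitors, had 2.17, 1.28 and 1.28 CPM in TGFB1 libraries and 0.734, 1.04 and 0.534 CPM in control libraries. It rose 2.05-fold (log2 1.03 ± 0.340, edgeR adjusted p = 0.0134), without overlap, but rested on 70 TGFB1 and 33 control counts, and its level exceeded the minimum of the count filter in 3 TGFB1 and 2 control libraries. HOXB7, studied as an oncogenic factor in breast and colon tumours, had 15.7, 15.6 and 20.5 CPM in TGFB1 libraries and 13.7, 14.4 and 14.0 CPM in control libraries, a 1.22-fold rise (edgeR adjusted p = 0.0260). TGFB1 library 3 stood far above the other TGFB1 libraries for HOXB7, and without it the log2 fold change was 0.15 (edgeR adjusted p = 0.229).

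HOXB13, a regulator of prostate and distal gut epithelium, had 8.83, 9.47 and 10.6 CPM in TGFB1 libraries and 12.997, 10.8 and 11.5 CPM in control libraries. The groups did not overlap by a narrow margin, and the fall was 1.22-fold (log2 −0.29 ± 0.116, edgeR adjusted p = 0.0397). Set against each other within a library, HOXB9 had 2.50, 2.37 and 1.89 counts per HOXB13 count in TGFB1 libraries and 1.10, 1.29 and 1.10 in control libraries. This ratio does not depend on library scaling. Several of these calls turned on single libraries. HOXB7 also missed the threshold when control 1 (edgeR adjusted p = 0.0770) or control 3 (0.0830) was left out, and DESeq2 gave it an adjusted p of 0.0619. HOXB8 missed it when control 3 (edgeR adjusted p = 0.0923) or TGFB1 1 (0.134) was left out, and DESeq2 gave 0.0510. For HOXB13 leaving out control 1, control 3, TGFB1 1 or TGFB1 2 each gave an edgeR adjusted p past 0.05 (0.173, 0.0665, 0.163 and 0.0878). So did testing it in DESeq2 (0.111), dropping the count filter (0.0570) and scaling to plain library size (0.101). HOXB9 passed under every alternative run. The lower-numbered HOXB genes did not pass: HOXB3 stood at 4.31 ± 0.526 CPM in TGFB1 cells and 5.07 ± 0.286 in control cells, HOXB5 at 4.99 ± 0.664 and 4.53 ± 0.909, and HOXB6 at 11.1 ± 1.34 and 9.75 ± 0.854.

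In HOXC, both tested genes beyond HOXC10 rose and the 5 tested genes up to HOXC10 did not pass. HOXC11, a hindlimb and intestinal regulator, had 32.8, 27.4 and 29.1 CPM in TGFB1 libraries and 22.0, 18.8 and 20.8 CPM in control libraries. HOXC13, needed for hair and nail keratin expression, had 16.9, 20.8 and 22.1 CPM in TGFB1 libraries and 12.8, 15.4 and 13.4 CPM in control libraries. Neither gene had overlapping groups. HOXC11 rose 1.45-fold (log2 0.53 ± 0.085, edgeR adjusted p = 6.44e-06) and HOXC13 1.44-fold (log2 0.52 ± 0.105, edgeR adjusted p = 0.000136), and both passed under every alternative run. HOXC10 had 37.0, 37.4 and 35.8 CPM in TGFB1 libraries and 38.1, 43.8 and 41.4 CPM in control libraries, lower without overlap but just outside the threshold (log2 −0.16, 95% interval −0.30 to −0.021, edgeR adjusted p = 0.0551). Without control 1 it passed as lower (edgeR adjusted p = 0.0166). HOXC11 counts per HOXC10 count were 0.886, 0.732 and 0.812 in TGFB1 libraries and 0.576, 0.429 and 0.502 in control libraries. HOXC8 had 7.61, 7.82 and 7.02 CPM in TGFB1 libraries and 6.09, 6.38 and 6.34 in control libraries, also without overlap, and did not pass (edgeR adjusted p = 0.118). HOXC4, HOXC6 and HOXC9 lay at 1.14-fold, 1.06-fold and 1.09-fold of control and did not pass, and HOXC4 and HOXC6 share exon bases, which the counting could not assign.

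**Figure D3:**
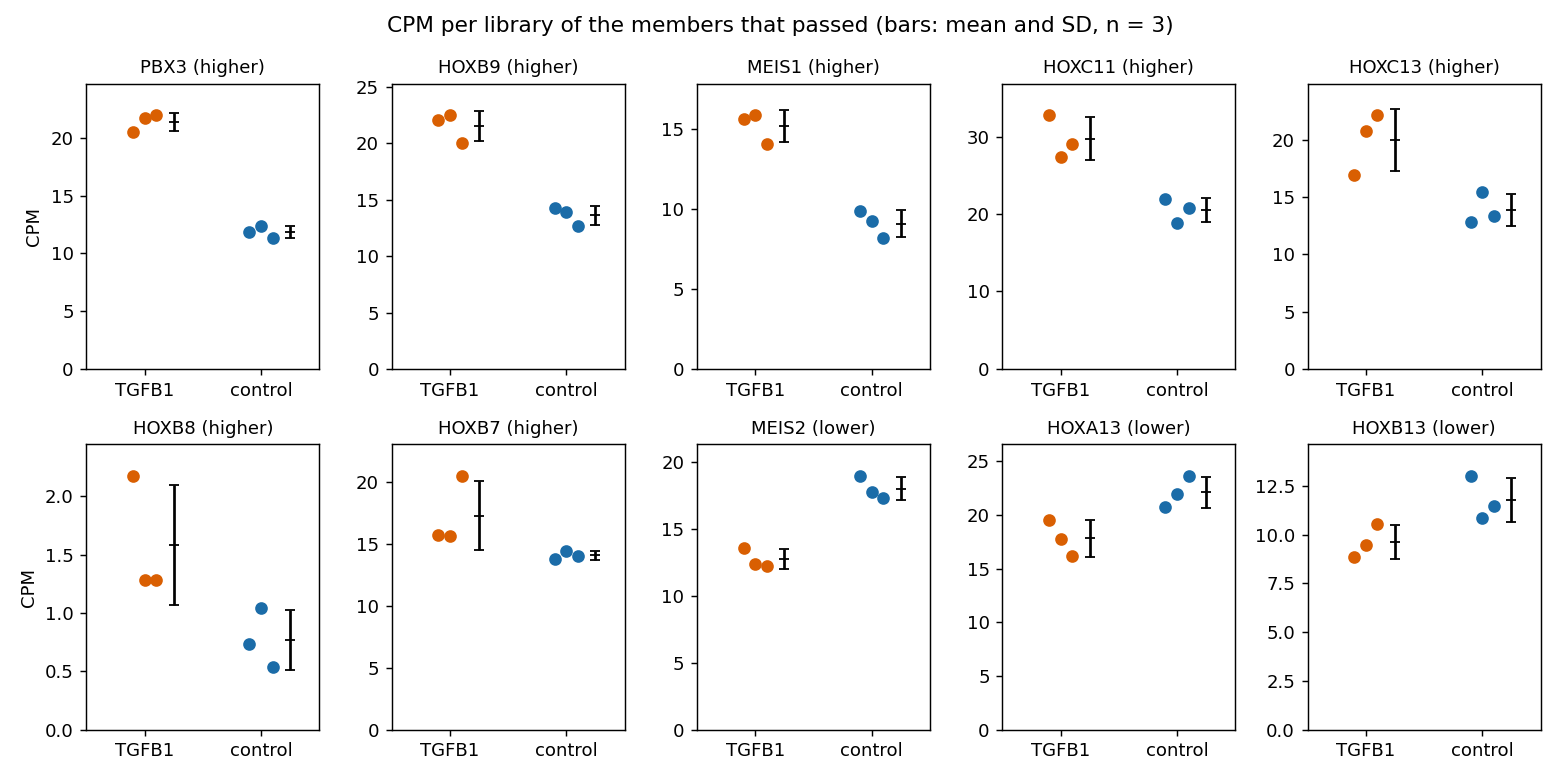
CPM per library of the 10 members that passed, each in its own panel with an axis from 0, TGFB1 at left (orange) and control at right (blue), with bars for mean and SD over 3 libraries. In all 10 the TGFB1 libraries lie wholly above or wholly below the control libraries, with a narrow gap for HOXB13 (10.6 against 10.8 CPM).

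In HOXA the gene that passed lay at the high end of the cluster and fell. HOXA13, a distal limb and hindgut patterning gene, had 19.6, 17.8 and 16.2 CPM in TGFB1 libraries and 20.8, 22.0 and 23.6 CPM in control libraries. It fell 1.24-fold (log2 −0.31 ± 0.090, edgeR adjusted p = 0.00543) and passed under every alternative run. HOXA11 had 22.2, 22.7 and 24.2 CPM in TGFB1 libraries and 26.1, 26.0 and 26.0 CPM in control libraries, lower without overlap, and did not pass (edgeR adjusted p = 0.0596). It passed as lower without TGFB1 3 (edgeR adjusted p = 0.0353). HOXA10, an endometrial and hematopoietic factor, stood at 10.4 ± 0.552 CPM in TGFB1 cells and 11.8 ± 1.06 in control cells and did not pass (edgeR adjusted p = 0.188). HOXA9, known as a leukemia oncogene that works with MEIS1, averaged 2.31 ± 0.419 CPM in TGFB1 cells and 2.64 ± 0.320 CPM in control cells, within the spread of the libraries. HOXA5 had a log2 fold change of −0.23 (95% interval −0.88 to 0.43) and HOXA7 one of 0.27 (−0.34 to 0.87), and neither passed.

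HOXD gave 2 tested genes, neither past the test: HOXD8 at 1.60 ± 0.481 CPM in TGFB1 cells and 1.67 ± 0.114 in control cells, and HOXD9 at 1.41 ± 0.283 and 1.30 ± 0.285 CPM. Among members under the count filter, HOXD3 had 7, 4 and 6 counts in TGFB1 libraries and 13, 16 and 9 in control libraries. The ratio was 0.434 after scaling, with a 95% exact interval of 0.230 to 0.788 that covers counting error only. HOXA3 had 5, 1 and 0 counts in TGFB1 libraries and 11, 5 and 6 in control libraries, a ratio of 0.265 (0.0878 to 0.673), and 1 library of each group had 5 counts. When no count filter was applied HOXA3 passed as lower (edgeR adjusted p = 0.0364) and HOXD3 did not (edgeR adjusted p = 0.0529), and HOXD3 was called lower without control 3, TGFB1 1 or TGFB1 3. In those 3 cases it entered the test through the control libraries alone (2 of them, and 0 TGFB1 libraries, met the minimum of the count filter), so it could hardly have been called higher. The exact intervals of HOXA4, HOXA6, HOXB4 and HOXD13 (18 TGFB1 and 8 control counts) included 1. HOXD3 overlaps other annotated genes over 90.2% of its exon bases, so its count is uncertain.

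Noncoding genes within the clusters were next set beside the HOX genes. Of 23 listed noncoding genes that had a row, 12 were tested, of which 4 rose, 0 fell and 8 did not pass. This called share of 33.3% is below the 47.3% of all genes. HOTAIR, a long noncoding RNA transcribed opposite to HOXC11 and known as a chromatin regulator, had 14.1, 14.4 and 16.5 CPM in TGFB1 libraries and 7.78, 6.45 and 6.68 CPM in control libraries. It rose 2.15-fold (log2 1.10, edgeR adjusted p = 6.48e-09), the groups being far apart. HOXC13-AS, antisense to HOXC13, had 2.67 ± 0.444 CPM in TGFB1 cells and 1.15 ± 0.363 in control cells and rose 2.27-fold (edgeR adjusted p = 0.000610). All 4 tested rows at the high end of HOXC, 2 coding and 2 noncoding, thus rose, while HOXC-AS1, HOXC-AS2 and HOXC-AS3 at lower numbers did not pass. In GENCODE 29 the gene bodies of HOTAIR and HOXC11 overlap, as do those of HOXC13-AS and HOXC13. Of their exon bases in that annotation, HOXC11 shares 0% with another gene, and HOXC13 shares 7.1% with HOXC13-AS. As no source used here states a strand setting, reads in shared stretches cannot be told apart.

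At the HOXB end, HOXB-AS4 and MIR196A1 lie beyond HOXB9. HOXB-AS4 had 61, 59 and 49 counts in TGFB1 libraries and 50, 28 and 35 in control libraries, so the groups overlapped, and rose 1.45-fold (edgeR adjusted p = 0.0428). Leaving out control 2, control 3, TGFB1 1 or TGFB1 3 each ended the call (edgeR adjusted p of 0.218, 0.163, 0.134 and 0.0588), and DESeq2 gave 0.109. MIR196A1 had 14, 14 and 16 counts in TGFB1 libraries and 4, 3 and 5 in control libraries (log2 1.80, edgeR adjusted p = 0.00112). No control library reached the minimum of the count filter, so the gene was tested because it was high in TGFB1 cells and could hardly have fallen. These are reads of the locus, which lies within the gene bodies of HOXB7 and HOXB-AS4 in GENCODE 29, and they do not measure the mature miRNA. HOTAIRM1, HOTTIP and HOXA11-AS, the best counted noncoding genes of HOXA, each stood at 1.04-fold of control and did not pass.

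The miR-196 genes are interleaved with the HOX genes, and miR-196a is known to cut HOXB8 mRNA in the mouse embryo. The mature sequences are shown, from RefSeq on GRCh38.p14 and 5′ to 3′, because the MIR196A1 locus was the miRNA row that rose beside HOXB8 and HOXB9. Capitals mark the seed, bases 2 to 8. MIR196A1 (chr17:48632532-48632553, minus strand) and MIR196A2 (chr12:53991762-53991783, plus strand, within the HOXC6 gene body) give the same 5p sequence, and MIR196B (chr7:27169528-27169549, minus strand) shares its seed.
hsa-miR-196a-5p: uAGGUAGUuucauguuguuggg
hsa-miR-196b-5p: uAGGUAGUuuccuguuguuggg
MIR196A2 had 7 counts in TGFB1 and 4 in control libraries, and MIR196B, MIR10A and MIR10B had 0 in all 6.

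**Figure D4:**
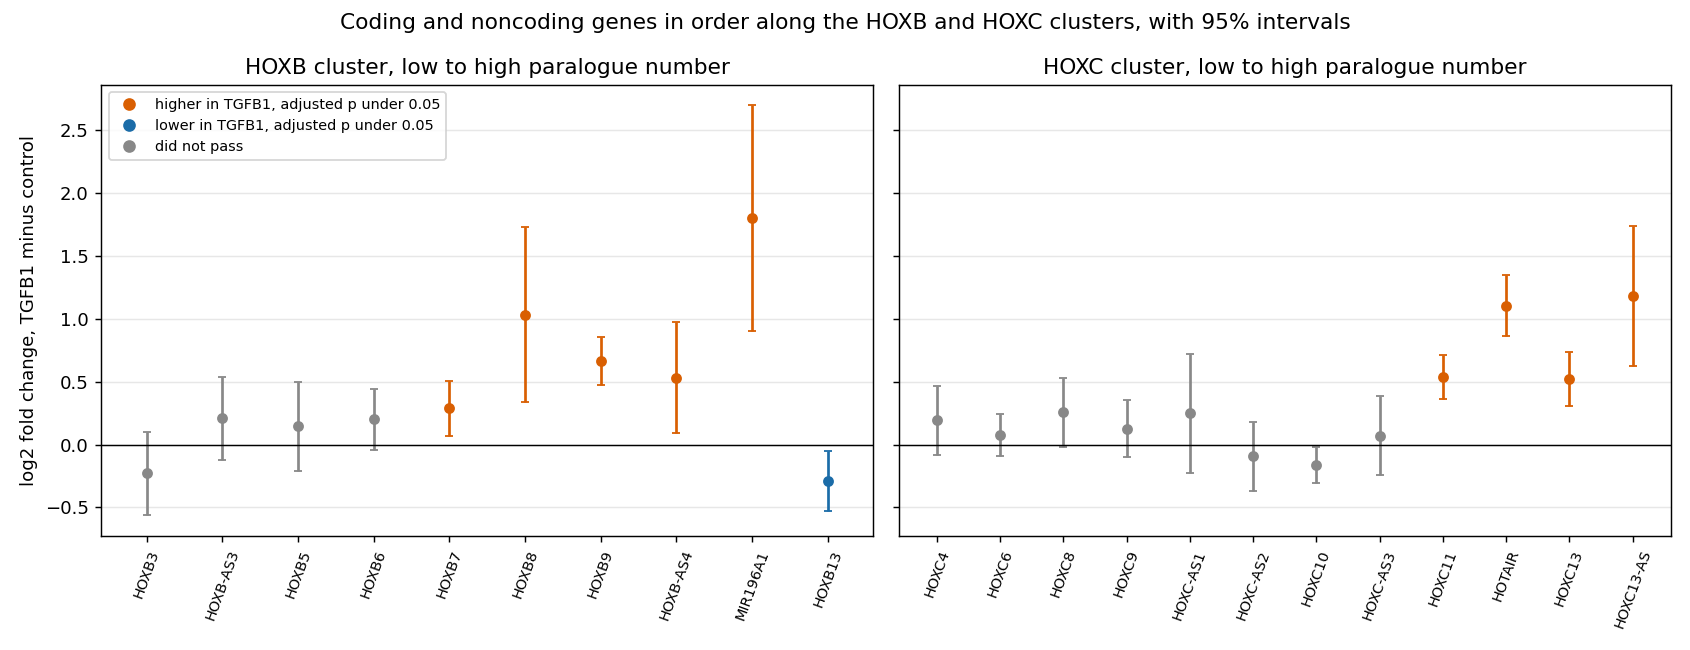
Log2 fold change, TGFB1 minus control, with 95% intervals, for tested coding and noncoding genes in order along the HOXB (left) and HOXC (right) clusters, placed by the end of each gene nearest the low-numbered side. Orange passed as higher, blue as lower and grey did not pass. The orange points form 1 run in each panel, from HOXB7 to MIR196A1 and from HOXC11 to HOXC13-AS. MIR196A1 was tested because it was high in TGFB1 cells, and the HOXB-AS4 groups overlapped. In GENCODE 29 the HOXB7 gene body overlaps those of HOXB8, HOXB9, HOXB-AS4 and MIR196A1, so these gene bodies are not separate stretches. Their exons each share 0% of bases with another gene in GENCODE 29, but the annotation used for counting is not stated.

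The partners moved in opposite directions within the MEIS family. MEIS1, a cofactor best known from blood stem cells and leukemia, had 15.6, 15.8 and 14.0 CPM in TGFB1 libraries and 9.84, 9.23 and 8.15 CPM in control libraries. MEIS2, a paralogue active in limb and neural crest development, had 13.6, 12.4 and 12.2 CPM in TGFB1 libraries and 18.9, 17.8 and 17.3 CPM in control libraries. Neither gene had overlapping groups. MEIS1 rose 1.68-fold (log2 0.75 ± 0.110, edgeR adjusted p = 1.80e-06) and MEIS2 fell 1.41-fold (log2 −0.50 ± 0.096, edgeR adjusted p = 8.38e-05). MEIS1 counts per MEIS2 count were 1.15, 1.28 and 1.15 in TGFB1 libraries and 0.519, 0.520 and 0.471 in control libraries, so the more counted of the pair changed. Per kilobase of exon they stood at 1.75 ± 0.113 (MEIS1) and 1.93 ± 0.112 (MEIS2) CPM per kb in TGFB1 cells, and at 1.05 ± 0.0988 and 2.73 ± 0.129 CPM per kb in control cells. MEIS3 had 9.17, 11.2 and 9.74 CPM in TGFB1 libraries and 8.003, 10.3 and 8.95 in control libraries, with overlap, and did not pass (edgeR adjusted p = 0.367). The sum of the 3 genes was 37.9 ± 1.75 CPM in TGFB1 cells and 36.2 ± 1.56 CPM in control cells.

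In the PBX family PBX3 rose. PBX3, a HOX partner studied in leukemia and gastrointestinal tumours, had 20.5, 21.7 and 22.0 CPM in TGFB1 libraries and 11.8, 12.4 and 11.4 CPM in control libraries. Its 1.81-fold rise was the smallest p among the 30 tested members (log2 0.85 ± 0.093, edgeR adjusted p = 8.82e-09). Every TGFB1 library stood above every control library. PBX2 stood at 47.9 ± 2.55 CPM in TGFB1 cells and 51.6 ± 0.682 in control cells (edgeR adjusted p = 0.183), and PBX4 at 8.09 ± 1.42 and 7.91 ± 0.903 CPM (edgeR adjusted p = 0.832). Among these 3 genes the order of level per kilobase of exon in TGFB1 cells was PBX2 (14.96), PBX3 (6.77) and PBX4 (4.69 CPM per kb), and in control cells PBX2 (16.1), PBX4 (4.59) and PBX3 (3.75 CPM per kb). PBX2 is uncertain, as its pseudogene PBX2P1 has a row of its own with 567 TGFB1 and 605 control counts. MEIS1, MEIS2 and PBX3 passed under every alternative run.

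Promoter sequence was looked up for the members that moved. Of the members reported here by gene, the RefSeq table held 26, with 4 of them among the genes that passed. The 250 bases before the start of these 4 are shown 5′ to 3′ on the strand of the gene (GRCh38.p14), to set the 3 partners that moved beside the HOX gene that fell with the smallest p. Capitals mark matches, on either strand, to CAGAC (the core motif of SMAD factors), TGACAG (the MEIS motif) and CCAAT (the NF-Y box).
MEIS1, chr2:66434875-66435124, plus strand: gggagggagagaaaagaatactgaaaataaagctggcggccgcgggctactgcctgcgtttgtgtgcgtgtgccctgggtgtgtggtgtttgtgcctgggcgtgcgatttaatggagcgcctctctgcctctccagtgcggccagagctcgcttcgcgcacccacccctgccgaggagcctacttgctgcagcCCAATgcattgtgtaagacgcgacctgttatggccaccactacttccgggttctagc
MEIS2, chr15:37099107-37099356, minus strand: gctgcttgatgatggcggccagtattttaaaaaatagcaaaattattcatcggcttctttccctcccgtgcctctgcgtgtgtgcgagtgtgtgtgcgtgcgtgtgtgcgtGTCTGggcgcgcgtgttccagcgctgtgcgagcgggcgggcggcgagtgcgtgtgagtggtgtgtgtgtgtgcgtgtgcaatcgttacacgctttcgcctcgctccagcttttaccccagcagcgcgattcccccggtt
PBX3, chr9:125747933-125748182, plus strand: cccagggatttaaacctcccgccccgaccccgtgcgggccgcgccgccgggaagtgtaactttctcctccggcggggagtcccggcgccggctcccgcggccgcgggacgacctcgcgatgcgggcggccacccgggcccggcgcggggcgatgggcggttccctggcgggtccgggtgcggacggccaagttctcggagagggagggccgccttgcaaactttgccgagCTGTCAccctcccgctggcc
HOXA13, chr7:27200092-27200341, minus strand: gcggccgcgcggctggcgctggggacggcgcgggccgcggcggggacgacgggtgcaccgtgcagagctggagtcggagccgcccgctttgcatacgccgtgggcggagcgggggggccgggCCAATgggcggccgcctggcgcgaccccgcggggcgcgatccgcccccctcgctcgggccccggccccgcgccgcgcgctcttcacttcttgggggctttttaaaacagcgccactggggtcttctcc
MEIS2 held 1 CAGAC, as do 37.8% of the 27305 promoters of this length, PBX3 held 1 TGACAG (13.1% of promoters), and MEIS1 and HOXA13 held 1 CCAAT each. None of the 26 held the SMAD palindrome GTCTAGAC (0.176% of promoters) or the AP-1 motif TGANTCA (6.60%), on either strand. The PBX-HOX motif TGATNNAT was found in 3 of 26 (6.69% of promoters), in HOXA2, HOXB1 and HOXD11, which had 7, 0 and 5 counts in all. CCAAT was found in 17 of 20 HOX promoters and in 33.0% of all promoters. HOXC4 and HOXC5 have the same window and are counted separately. These are matches of letters in a short window, not binding sites.

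Relatives and binders of PBX and MEIS were taken from a list. Of its 13 genes 7 were tested, of which 3 rose, 1 fell and 3 did not pass, a called share of 57.1% against 47.3% of all genes. PBXIP1, a cytoplasmic protein that binds PBX proteins and keeps them from DNA, had 41.0, 42.0 and 38.3 CPM in TGFB1 libraries and 28.6, 26.2 and 30.1 CPM in control libraries, and rose 1.43-fold (edgeR adjusted p = 9.16e-07). TGIF2, a homeodomain repressor that binds SMADs, rose 1.33-fold (edgeR adjusted p = 7.74e-06), and geminin (GMNN), which binds HOX proteins and the replication licensing factor CDT1, rose 1.204-fold. IRX3, an Iroquois homeodomain factor, fell to 1.78 ± 0.362 CPM in TGFB1 cells, against 3.23 ± 0.220 CPM in control cells. IRX5 did not pass (edgeR adjusted p = 0.0841) and was called lower without control 2 (edgeR adjusted p = 0.0490). PKNOX1 and TGIF1, at 18.0 ± 0.272 and 40.7 ± 1.28 CPM in TGFB1 cells and 18.9 ± 0.430 and 41.0 ± 3.54 CPM in control cells, did not pass.

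Known regulators of HOX genes went both ways. Of 39 listed 32 were tested, of which 8 rose, 7 fell and 17 did not pass, a called share of 46.9% against 47.3% of all genes. CDX2 and CDX4 had 0 counts in every library, and CDX1 had 6 TGFB1 and 0 control counts. Retinoic acid, which switches on low-numbered HOX genes, acts through receptors of which RXRA fell to 111 ± 3.01 CPM in TGFB1 cells, against 163 ± 8.30 in control cells, while RXRB rose 1.57-fold and RARA 1.35-fold. Polycomb complexes keep HOX clusters silent. Their subunit PHC2 stood at 80.4 ± 3.98 CPM in TGFB1 cells and 45.0 ± 1.30 in control cells, a 1.79-fold rise (edgeR adjusted p = 3.14e-12), whereas SUZ12 fell to 69.5 ± 1.60 CPM in TGFB1 cells, against 88.5 ± 4.11 in control cells. KDM6B, which removes the Polycomb mark from histone H3, rose 1.51-fold (edgeR adjusted p = 6.20e-08). The Polycomb methyltransferase EZH2 did not pass (edgeR adjusted p = 0.106) but did when scaled to plain library size (edgeR adjusted p = 0.0144). PCGF2 did not pass either (edgeR adjusted p = 0.0886), but did so scaled (0.0157) and when control 2 (0.0400) or TGFB1 3 (0.0440) was left out.

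Genes flanking the clusters were also compared. Of 16 neighbours with a row 11 were tested, of which 3 rose, 4 fell and 4 did not pass. The called share was 63.6%, against 47.3% of all genes. At the HOXC flanks CBX5, which encodes the heterochromatin protein HP1α, and HNRNPA1, a splicing factor, fell to 0.829-fold and 0.893-fold of control, while CALCOCO1, a nuclear coactivator and autophagy receptor, rose 1.21-fold. Scaled to plain library size, HNRNPA1 did not pass (edgeR adjusted p = 0.0610). SMUG1, a uracil DNA glycosylase, rose 1.12-fold (edgeR adjusted p = 0.0444) but missed the threshold when control 2, control 3, TGFB1 1 or TGFB1 2 was left out (edgeR adjusted p of 0.0816, 0.259, 0.112 and 0.104). It also did in DESeq2 (0.0972), with no count filter (0.0882) and with a replicate block (0.0783). Near HOXA, HIBADH, an enzyme of valine breakdown, fell to 0.743-fold and SNX10, an endosomal sorting nexin, rose 1.38-fold. ATP5G2 beside HOXC and MTX2 beside HOXD, at 1 CPM or more in both groups, did not pass. EVX1 and EVX2, homeobox genes at the ends of HOXA and HOXD, had 1 count and 0 counts over the 6 libraries, and PRAC1 and PRAC2, which lie between HOXB9 and HOXB13 and are markers of prostate and distal colon, had 3 counts each.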

How the data were processed

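The authors deposited whole-number read counts per gene symbol, without normalization, 1 table per library. The submitters' processing notes name HTSeq, TopHat and TopHat2 2.0.11, and as builds GRCh37 and hg19, without role or order. No source used here gives the annotation or the strand setting. Closing lines of the tables stayed out of library sizes: reads with no feature (5.44% to 5.98%), ambiguous reads (9.01% to 9.43%) and reads aligned to several places (12.0% to 12.5%).

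Groups came from the labels. Genes were kept with filterByExpr (minimum count 10, minimum total 15; 14897 genes), scaled by TMM and tested with edgeR 4.0.16 (robust quasi-likelihood fit, R 4.3.3), calling an adjusted p under 0.05 after Benjamini-Hochberg correction across the whole table. CPM use the same scaled totals. Each SE is the log2 fold change over the root of its F value. Exon lengths, overlaps and gene order are from GENCODE 29 and promoters and miRNAs from RefSeq, both on GRCh38, not the build of the counts. Libraries of the same group differed from each other by more than sampling noise (chi-square over degrees of freedom, 1.82 to 4.66).

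Members and gene lists were chosen with earlier results of these data known. Every member is named but 2, which count in the totals and are not reported here by gene, and from each further list up to 6 tested genes with the lowest p and up to 2 of at least 10 CPM that did not pass; IRX5, PCGF2, PRAC1, PRAC2, EVX1, EVX2, MIR10A, MIR10B, MIR196A2, MIR196B, HOTTIP, CDX1, CDX2 and CDX4 and the named cell type markers were added after their values were seen. Alternatives were DESeq2 1.42.0, limma-voom (limma 3.58.1), 2 other scalings, 2 other filters, a block for replicate number, and 1 library left out at a time. The test was tried on simulated counts.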

Additional observations from a re-analysis of the deposited data

How the results depend on the processing

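Counts of calls in the PBX and MEIS genes were the same under all 13 alternatives, and 340 of 364 values of single members kept direction and side of the threshold. DESeq2 called 3 HOX genes higher and 1 lower, against 5 and 2, and scaling by library size alone called 1 lower (5 higher, 83.3% of HOX calls against 71.4%). Over all genes it moved the median log2 fold change to 0.057 and called 4216 higher and 2879 lower, against 3483 and 3561. Leaving out 1 library gave 3 to 5 HOX genes higher and 1 to 4 lower: 3 higher without control 3, 1 lower without TGFB1 2 and 4 lower without TGFB1 3; the cause was not tested. Over all genes these counts ran from 6115 to 6690 without a control library and from 6228 to 6816 without a TGFB1 library, against 7044. With the replicate block 6775 genes were called; the same 7 HOX genes passed. Same-numbered libraries did not deviate together (correlations 0.031, −0.107 and −0.048), and TGFB1 library 2 and 3 correlated best with other numbers.

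Of the values that changed sign, none belonged to a gene that passed (log2 fold changes). Scaling by library size alone gave 0.0089 for HOXD8, 0.0088 for ATP5G2 and 0.046 for TGIF1. Leaving out 1 library at a time gave −0.211 to 0.156 for HOXD8, −0.023 to 0.290 for HOXD9, −0.094 to 0.157 for PBX4, −0.013 to 0.113 for HOTAIRM1 and −0.061 to 0.054 for TGIF1. Members near 1 CPM rest on few counts, and only large changes were detectable there.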
